A study of Rattus norvegicus with 6 samples.

Results

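The integrins, laminins and basement membrane genes described here are all listed genes whose symbol is an integrin subunit name with a number (Itga or Itgb followed by a digit), a laminin chain name (Lama, Lamb or Lamc followed by a digit), or Nid1, Nid2, Hspg2, Dst or Plec. This rule found 33 of the 14405 protein-coding genes listed. No measured value entered the rule, but the members were chosen with earlier results of these data known. The rule takes in Itgb1bp1, Itgb1bp2 and Itgb3bp, which are named for binding integrins and are not integrins. It leaves out integrin subunits named with a letter, such as Itgav and Itgal. Hspg2, the gene of perlecan, was not among the listed genes. RNA-seq was done on rat tissue labelled dorsal tongue epithelium, which the series places at the circumvallate papilla, the taste papilla at the back of the tongue. There were 3 control libraries from rats without periodontitis and 3 libraries from rats with chronic periodontitis, a lasting inflammation of the tissue that holds the teeth. The labels give no strain, age, sex or way of inducing the disease, and do not say whether each library came from its own animal. P-values therefore rest on variation from library to library, part of which may be technical.

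A basement membrane is the thin sheet of matrix on which an epithelium rests and which also wraps muscle fibres, Schwann cells, fat cells and blood vessels. Laminins, trimers of an alpha, a beta and a gamma chain, assemble into one network of the sheet, type IV collagen forms another, and nidogens and perlecan link them. Integrins are cell surface receptors made of an alpha and a beta subunit that bind laminins, collagens or fibronectin outside the cell and the cytoskeleton inside it. In the basal cells of stratified epithelium such as that of the tongue, the integrin made by Itga6 and Itgb4 binds a laminin that holds the Lama3 and Lamb3 chains. That integrin is tied to keratin filaments by the plakins plectin (Plec) and dystonin (Dst), in the anchoring junction called the hemidesmosome.

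The unit is FPKM, a read count divided by transcript length and by library total, so that levels of different genes can be set side by side. Depth is unknown. Keratinocyte, gland, taste and muscle markers were all present, and no gene of the 13 marker lists used here was listed at 0 in any library. Basal keratinocyte markers (Krt5, Krt14 and 4 others) summed to 1224 to 1596 FPKM in controls and 960 to 2461 FPKM in periodontitis. Skeletal muscle markers, of tissue that lies under the epithelium, summed to 3012 to 4224 FPKM in controls and to 759, 2062 and 2497 FPKM in periodontitis 1 to 3. Periodontitis 1 and 3 stood apart in opposite directions for several lists. Cornified epithelium markers summed to 20759 FPKM in periodontitis 1 and 7228 FPKM in periodontitis 3, against 10687 to 13776 FPKM in controls. In bulk tissue, fewer cells of a type and less RNA per cell cannot be told apart.

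Together the 33 genes made up 0.0544% to 0.067% of the FPKM sum in controls and 0.0472%, 0.0661% and 0.058% in periodontitis 1 to 3. Itgb1, the beta subunit shared by most integrins, was the most abundant in controls, followed by the hemidesmosome pair Itgb4 and Itga6. These 3 genes held 41.4% to 45.5% of the members' summed FPKM in controls and 42.0% to 49.7% in periodontitis. The least abundant was Itga11, a collagen-binding subunit, with 0.873 ± 0.0851 FPKM in controls (SD, n = 3). It was under 1 FPKM in all 6 libraries and is the 1 member that was not tested.

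**Figure D1:**
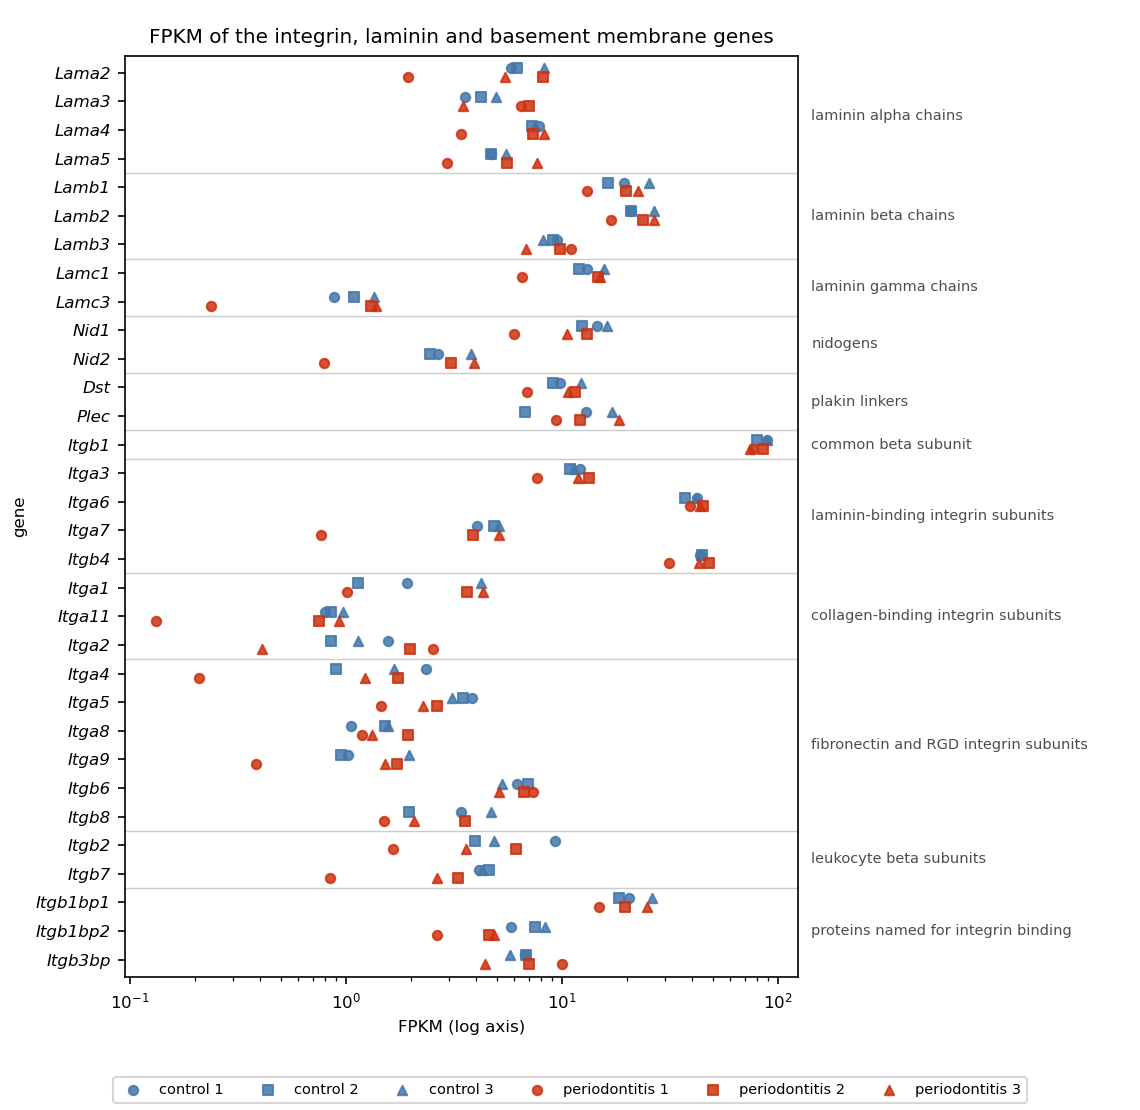
FPKM (log axis) of the genes described in each of the 6 libraries, with controls in blue, periodontitis in red, and a marker shape for each replicate number. Itgb1, Itgb4 and Itga6 lie highest, and periodontitis 1 (red circle) is the lowest library in 22 of the 32 tested genes.

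Periodontitis and control libraries were compared over the 13154 genes that reached 1 FPKM in 3 or more libraries, on the log2(FPKM + 1) scale, which understates the change of low genes. No gene passed a limma adjusted p of 0.05 (0%), and so none of the 32 tested members did. Each of the 32 had an adjusted p that rounds to 1.0. At an unadjusted p under 0.05 limma gave 3 members (9.38%), all lower, against 2.11% of all tested genes in either direction and 1.73% lower. Itgb1bp2, Itgb7 and Itga5 were these 3. They were also the only tested members whose groups did not overlap, with every periodontitis value below every control value. Groups without overlap were found in 5.56% of all genes, lower in 3.59% and higher in 1.97%. A lower mean in periodontitis was seen in 21 of the 32 members, against 57.4% of all genes. The median log2 fold change was -0.13 over the members and -0.03 over all tested genes. The count of 3 members at an unadjusted p under 0.05 depended on single libraries: it was 1 without control 1 (1.11% of all genes) or periodontitis 1 (1.79%), and 0 without control 2 (0.900%) or control 3 (1.50%). It was 4 without periodontitis 2 (4.96% of all genes) and 5 without periodontitis 3 (7.77%), and 2 of the latter 5, Lama3 and Itga2, were higher. With quantile normalization 45.0% of all genes and 19 of 32 members had a lower mean.

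Most members, like most genes, varied more among the periodontitis libraries than among the controls. Log2 values spread more in periodontitis than in control for 30 of the 32 members, against 81.1% of all genes. Periodontitis 1 was the lowest of the 6 libraries for 22 members, where it was the lowest for 34.7% of all genes. Periodontitis 3 was the lowest for 6 members (Lama3, Lamb3, Itga2, Itgb6, Itgb1 and Itgb3bp), where it was the lowest for 39.4% of all genes. Periodontitis 2 was the lowest for 0 members (3.13% of all genes) and control 3 for 1 (6.63%). Periodontitis 1 was the highest library for 5 members, Lamb3, Itgb6, Itgb3bp and Itga2 among them, where it was the highest for 27.8% of all genes. Periodontitis 3 was the highest for 7 members (16.2% of all genes), control 3 for 10 (13.8%) and control 2 for 1, Itgb7 (9.36%). Relative to the control mean, the members' median deviations in periodontitis 1 to 3 were -0.59, 0.12 and -0.03, and those of the controls lay between -0.10 and 0.13. Without periodontitis 1 the median log2 fold change of the members was 0.04, against -0.03 over all genes, and 14 of 32 had a lower mean, against 55.6% of all genes.

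**Figure D2:**
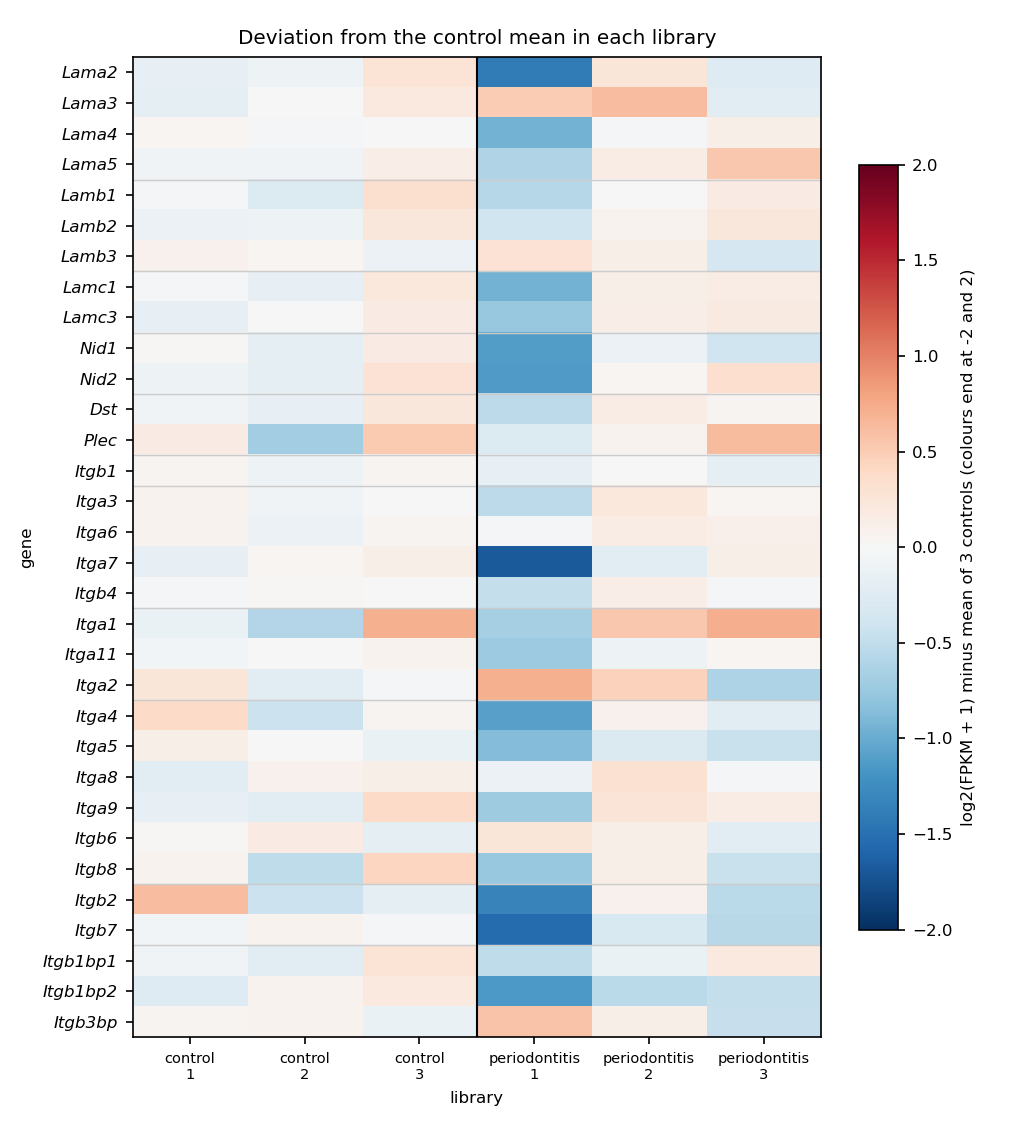
Log2(FPKM + 1) of each gene described minus its control mean, in each library, as colour from blue (lower) to red (higher). The column of periodontitis 1 is blue for most genes and red for Lama3, Lamb3, Itga2, Itgb6 and Itgb3bp, while periodontitis 2 and 3 lie nearer to the controls.

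The epithelial laminin chains Lama3 and Lamb3 were highest in periodontitis 1 or 2 and did not separate the groups. Lama3, the alpha chain (chromosome 18, 3705916 to 3940838 by the deposited tables, whose rat build the sources used here do not give), had 3.55, 4.22 and 4.97 FPKM in controls 1 to 3 and 6.44, 7.04 and 3.48 FPKM in periodontitis 1 to 3. Periodontitis 1 and 2 lay above all controls and periodontitis 3 below them, with a log2 fold change of 0.31 ± 0.26 (SE, limma unadjusted p = 0.280). Lamb3, the beta chain (chromosome 13, 112031594 to 112073186), had 9.48, 9.12 and 8.14 FPKM in controls and 11.0, 9.75 and 6.82 FPKM in periodontitis, so that the periodontitis libraries lay on both sides of the controls. Periodontitis 1 was the highest of the 6 libraries for Lamb3. Its log2 fold change was 0.02 ± 0.21 (SE). In the same libraries the basal keratinocyte markers had a median deviation of 0.56, -0.02 and -0.52 in periodontitis 1 to 3, and the immediate early genes, which include the AP-1 subunits Fos and Jun, had 2.01, 0.14 and 1.40. Their part in the laminin values was not tested.

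The promoters of Lama3 and Lamb3 are shown because their products sit in one trimer and their sequences differ in the AP-1 motif. AP-1 is a transcription factor formed by Fos and Jun proteins. Both windows run from 250 bases before to 50 bases after the annotated start, from RefSeq on build GRCr8, at chr18:3952517-3952816 (plus strand) and chr13:107362303-107362602 (plus strand). Capitals mark matches to TGANTCA (the AP-1 motif), GGGCGG (the GC box) or TATAAA (the TATA box), each searched on both strands.
Lama3: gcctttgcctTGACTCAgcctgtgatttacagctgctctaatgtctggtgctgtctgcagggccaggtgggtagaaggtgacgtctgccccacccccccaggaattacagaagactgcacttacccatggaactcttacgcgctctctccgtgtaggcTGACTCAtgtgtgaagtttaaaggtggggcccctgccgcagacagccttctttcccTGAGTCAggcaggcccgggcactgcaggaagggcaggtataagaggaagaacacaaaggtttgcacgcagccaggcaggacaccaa
Lamb3: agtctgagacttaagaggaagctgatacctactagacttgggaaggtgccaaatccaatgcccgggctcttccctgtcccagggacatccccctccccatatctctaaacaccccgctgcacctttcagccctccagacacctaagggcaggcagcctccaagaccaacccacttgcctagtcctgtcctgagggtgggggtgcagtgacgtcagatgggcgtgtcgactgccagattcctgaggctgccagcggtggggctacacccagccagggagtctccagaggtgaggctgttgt
The Lama3 window held 3 AP-1 matches, which begin 240, 92 and 36 bases before the start, and no other match. Of the 25 members with a promoter in the RefSeq table (8 had no entry), Lama3 was the 1 member with an AP-1 match (4.0%), against 7.33% of 33469 promoters. The Lamb3 window held no match to any of the 3 motifs. The GC box was found in 15 of the 25 member promoters (60.0%), against 33.1% of all promoters, and the TATA box in 2 (8.0%), against 14.2%. The 33469 promoters were not limited to the genes listed here, so these shares compare unlike sets. A match is a description of the letters and not a measured binding site.

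The laminin chains of muscle, vessel, nerve and general basement membranes were lowest in periodontitis 1. Lama2, the alpha chain of muscle and Schwann cell basement membrane, had 5.84, 6.17 and 8.28 FPKM in controls and 1.93, 8.13 and 5.43 FPKM in periodontitis. Lama4, an alpha chain of vessel and fat cell basement membrane, had 7.79, 7.30 and 7.52 FPKM in controls and 3.42, 7.32 and 8.27 FPKM in periodontitis. Periodontitis 1 was the lowest library for both and the groups overlapped. Periodontitis 3 lay just below the controls for Lama2 and just above them for Lama4. Lama5, the alpha chain most widely found in adult epithelia and vessels, had 4.69, 4.69 and 5.53 FPKM in controls and 2.94, 5.59 and 7.65 FPKM in periodontitis, with periodontitis 1 below and periodontitis 2 and 3 above all controls. The log2 fold changes were -0.47 ± 0.40 for Lama2, -0.29 ± 0.29 for Lama4 and 0.03 ± 0.29 for Lama5 (SE).

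Lamc1, the gamma chain of most laminins (chromosome 13, 70658707 to 70783515), had 13.1, 11.9 and 15.7 FPKM in controls and 6.55, 14.7 and 15.0 FPKM in periodontitis, the first of which was the only value outside the control range. Lamb1 and Lamb2, the beta chains that pair with Lamc1, were the most abundant laminin chains, with 20.3 ± 4.58 and 22.8 ± 3.27 FPKM in controls and 18.5 ± 4.84 and 22.5 ± 5.05 FPKM in periodontitis (SD, n = 3). Both were lowest in periodontitis 1, with 13.1 and 16.9 FPKM. Lamc3, a gamma chain of restricted expression, had 0.878 to 1.34 FPKM in controls and 0.237, 1.30 and 1.38 FPKM in periodontitis.

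Nid1, nidogen 1, which links laminin to type IV collagen, had 14.5, 12.4 and 16.1 FPKM in controls and 5.99, 13.0 and 10.6 FPKM in periodontitis. Periodontitis 1 and 3 lay below all controls and periodontitis 2 within them. The log2 fold change was -0.55 ± 0.27 (SE, limma unadjusted p = 0.0822, adjusted p = 1.0), the largest in size among the extracellular members, and -0.26 without periodontitis 1. Nid2, its homologue, had 2.67, 2.45 and 3.78 FPKM in controls and 0.789, 3.05 and 3.93 FPKM in periodontitis, where only periodontitis 1 was below the controls. Dst, the plakin that ties the hemidesmosome to keratin in epithelium and has other forms in muscle and nerve, had 9.80, 9.11 and 12.2 FPKM in controls and 6.90, 11.5 and 10.7 FPKM in periodontitis. Plec had 13.0, 6.75 and 17.0 FPKM in controls and 9.38, 12.2 and 18.4 FPKM in periodontitis. The control range of Plec alone spanned most of the periodontitis range.

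**Figure D3:**
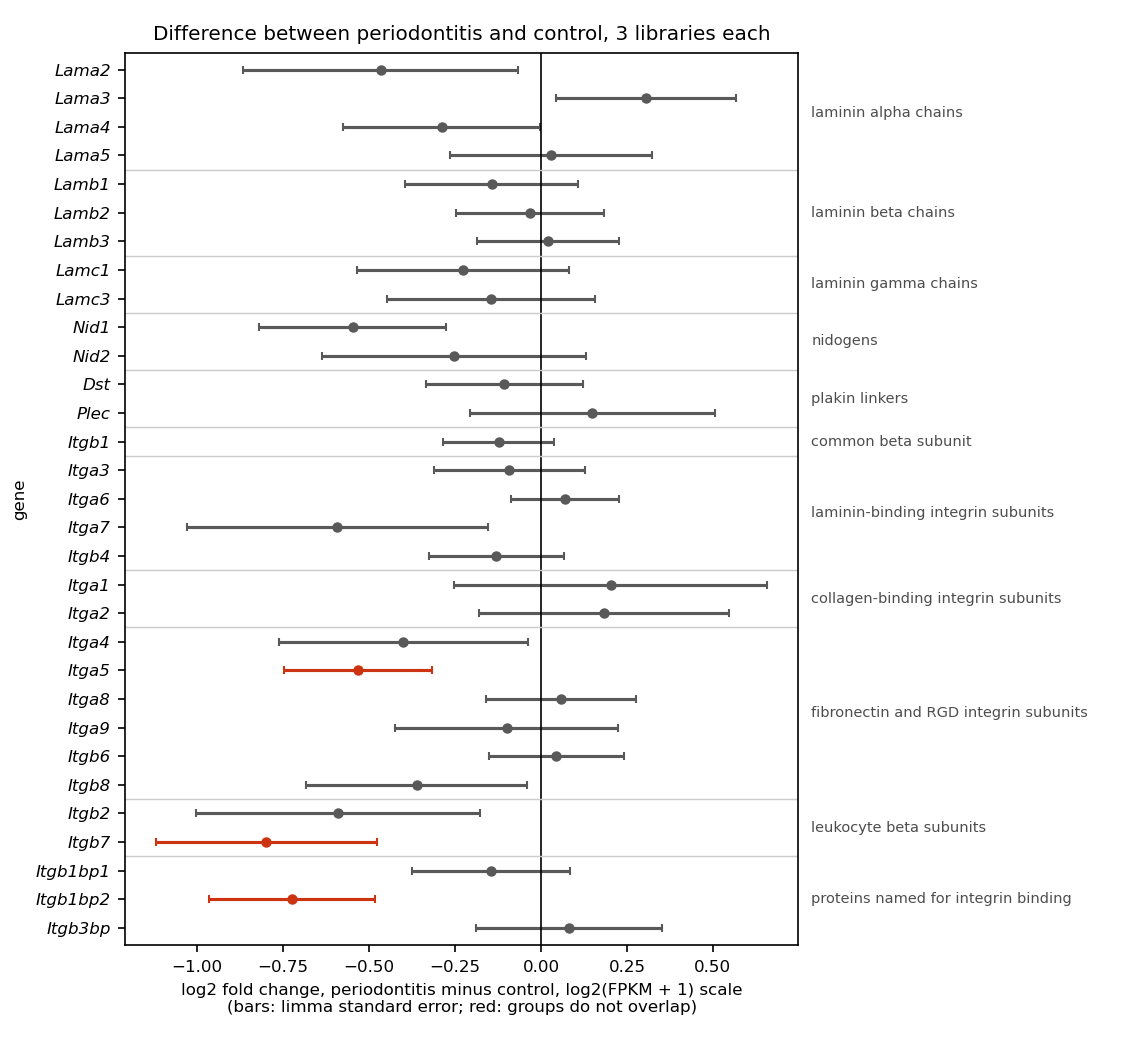
Log2 fold change (periodontitis minus control, log2(FPKM + 1) scale) of the tested genes described, with the limma standard error, ordered by role. The 3 genes in red, Itga5, Itgb7 and Itgb1bp2, are those whose groups do not overlap, and the other genes have overlapping groups.

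Among the laminin receptors, neither gene of the hemidesmosome pair separated the groups. Itga6 (chromosome 3, 58443101 to 58515124) had 42.4, 37.3 and 41.8 FPKM in controls and 39.2, 45.1 and 43.4 FPKM in periodontitis. Periodontitis 2 and 3 lay above all controls, and the log2 fold change was 0.07 ± 0.16 (SE, limma unadjusted p = 0.667). Itgb4 (chromosome 10, 104523996 to 104561078) had 43.5, 44.7 and 44.0 FPKM in controls and 31.3, 48.1 and 43.0 FPKM in periodontitis. The 3 controls of Itgb4 agreed closely, and the periodontitis libraries lay on both sides of them, with a log2 fold change of -0.13 ± 0.20. Itgb1 had 89.4, 79.7 and 88.9 FPKM in controls and 76.9, 85.2 and 74.5 FPKM in periodontitis, with periodontitis 1 and 3 below all controls and a log2 fold change of -0.12 ± 0.16. Itga3, another laminin-binding subunit of basal keratinocytes, had 12.1, 10.9 and 11.4 FPKM in controls and 7.65, 13.4 and 11.8 FPKM in periodontitis.

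Itga7, the laminin-binding subunit of skeletal muscle, had 4.04, 4.82 and 5.13 FPKM in controls and 0.768, 3.87 and 5.09 FPKM in periodontitis. Periodontitis 1 and 2 lay below all controls, periodontitis 1 by far the more, and periodontitis 3 lay within them. The log2 fold change was -0.59 ± 0.44 with all libraries and -0.05 without periodontitis 1. Skeletal muscle markers had median deviations of -2.15, -0.72 and -0.43 in periodontitis 1 to 3 and -0.19 to 0.31 in controls. All 12 were tested, 12 had a lower mean (57.4% of all genes) and 9 were lower without overlap between groups (3.59% of all genes). The part of these markers in the Itga7 values was not tested.

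The collagen-binding subunits Itga1 and Itga2 are neighbours on chromosome 2, 30.3 kb apart on the same strand with no listed gene between them. Itga1, typical of mesenchymal cells and vessels, had 1.92, 1.14 and 4.21 FPKM in controls and 1.01, 3.64 and 4.31 FPKM in periodontitis. Itga2, typical of keratinocytes and platelets, had 1.56, 0.855 and 1.13 FPKM in controls and 2.53, 1.99 and 0.409 FPKM in periodontitis. The order of the periodontitis libraries was thus opposite for the neighbours, with periodontitis 1 lowest of all libraries for Itga1 and highest for Itga2. Neither separated the groups.

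Itga5, the alpha subunit of the main fibronectin receptor (chromosome 7, 144970444 to 144993652), had 3.84, 3.47 and 3.08 FPKM in controls and 1.45, 2.63 and 2.28 FPKM in periodontitis. All periodontitis libraries lay below all controls. The mean was 3.46 ± 0.380 against 2.12 ± 0.608 FPKM (SD, n = 3), with a log2 fold change of -0.53 ± 0.22 (SE, limma unadjusted p = 0.0404, adjusted p = 1.0) and of -0.37 without periodontitis 1. The other subunits of receptors for fibronectin, other RGD ligands or vascular adhesion molecules had overlapping groups. Itgb6, an epithelial subunit that activates latent TGF-beta, had 5.27 to 6.93 FPKM in controls and 7.38, 6.67 and 5.10 FPKM in periodontitis. Itgb8, which also activates latent TGF-beta, had 3.42, 1.95 and 4.70 FPKM in controls and 1.50, 3.57 and 2.07 FPKM in periodontitis, so that only periodontitis 1 was outside the control range. Itga4, a subunit of leukocytes among other cells, had 2.34, 0.902 and 1.66 FPKM in controls and 0.209, 1.74 and 1.23 FPKM in periodontitis, again with only periodontitis 1 outside. Itga8 and Itga9 had log2 fold changes of 0.06 and -0.10.

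The leukocyte beta subunits were lowest in periodontitis 1. Itgb7, which pairs with Itga4 or Itgae on lymphocytes and other leukocytes including mast cells (chromosome 7, 143820900 to 143837780), had 4.14, 4.61 and 4.27 FPKM in controls and 0.840, 3.30 and 2.65 FPKM in periodontitis. All periodontitis libraries lay below the narrow control range. The mean was 4.34 ± 0.245 against 2.26 ± 1.28 FPKM (SD, n = 3), with a log2 fold change of -0.80 ± 0.32 (SE, limma unadjusted p = 0.0399, adjusted p = 1.0) and of -0.43 without periodontitis 1. Itgb2, the common beta subunit of leukocyte integrins, had 9.30, 3.95 and 4.86 FPKM in controls and 1.66, 6.13 and 3.61 FPKM in periodontitis, with overlap. The 8 leukocyte markers had a lower mean in 8 of 8 genes, against 57.4% of all genes. Their median deviation was -1.16, 0.18 and -0.49 in periodontitis 1 to 3 and -0.20 to 0.33 in controls. Periodontitis 2 was thus inside the control range for these markers and below it for Itgb7, and the part of the markers in the Itgb7 values was not tested.

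Among the proteins named for integrin binding, Itgb1bp2 had the smallest p of the members. It encodes melusin, a chaperone of striated muscle that binds the tail of the beta-1 integrin subunit. It lies on chromosome X (71342775 to 71347619) and had 5.81, 7.49 and 8.30 FPKM in controls and 2.65, 4.57 and 4.87 FPKM in periodontitis. All periodontitis libraries lay below all controls. The mean was 7.20 ± 1.27 against 4.03 ± 1.20 FPKM (SD, n = 3), with a log2 fold change of -0.72 ± 0.24 (SE, limma unadjusted p = 0.0187, adjusted p = 1.0) and of -0.51 without periodontitis 1. The skeletal muscle marker medians given above were below the control range in the same 3 libraries, and their part in the Itgb1bp2 values was not tested. Itgb1bp1, a regulator of integrin activation present in many cells, had a mean of 21.7 ± 3.95 FPKM in the control group and of 19.7 ± 4.92 FPKM with disease (SD, n = 3). Itgb3bp, a centromere protein of dividing cells, had 5.74 to 6.79 FPKM in controls and 10.05, 7.06 and 4.39 FPKM in periodontitis, with the periodontitis libraries on both sides of the controls.

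The promoters of the 3 members whose groups did not overlap are shown to set their sequences beside one another. They are RefSeq windows of the same length on GRCr8, at chr7:136381256-136381555 (minus strand) for Itga5, chr7:135239022-135239321 (minus strand) for Itgb7 and chrX:70612271-70612570 (plus strand) for Itgb1bp2. Capitals mark the same 3 motifs.
Itga5: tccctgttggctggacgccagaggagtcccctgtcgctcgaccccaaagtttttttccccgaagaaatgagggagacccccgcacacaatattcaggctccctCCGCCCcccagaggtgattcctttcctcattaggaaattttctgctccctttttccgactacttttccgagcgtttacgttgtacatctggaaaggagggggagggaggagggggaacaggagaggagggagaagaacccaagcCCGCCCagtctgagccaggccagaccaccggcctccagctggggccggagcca
Itgb7: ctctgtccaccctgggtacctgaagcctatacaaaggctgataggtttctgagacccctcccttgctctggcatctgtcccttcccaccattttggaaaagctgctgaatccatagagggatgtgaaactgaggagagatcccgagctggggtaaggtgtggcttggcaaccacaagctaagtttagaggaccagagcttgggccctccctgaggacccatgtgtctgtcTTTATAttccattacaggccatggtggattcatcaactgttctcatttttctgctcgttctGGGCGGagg
Itgb1bp2: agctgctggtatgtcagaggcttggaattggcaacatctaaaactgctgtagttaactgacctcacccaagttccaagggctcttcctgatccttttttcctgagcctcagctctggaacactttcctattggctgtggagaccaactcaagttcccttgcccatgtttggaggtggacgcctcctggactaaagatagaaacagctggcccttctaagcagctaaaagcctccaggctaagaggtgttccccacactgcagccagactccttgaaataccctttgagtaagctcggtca
Itga5 held 2 GC boxes, which begin 147 and 3 bases before the start, Itgb7 held a TATA box on the opposite strand that begins 20 bases before the start and a GC box 42 bases into the transcript, and Itgb1bp2 held none of the 3 motifs. The 3 windows thus shared none of these motifs.

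Ratios between members within a library do not depend on the library total. The ratio of Lama3 to Lama2 was 0.608, 0.684 and 0.601 in controls 1 to 3 and 3.33, 0.865 and 0.640 in periodontitis 1 to 3. The ratio of Lamb3 to Lamb1 was 0.322 to 0.559 in controls and 0.845, 0.491 and 0.304 in periodontitis. In both of these pairs of an epithelial chain and a chain of other basement membranes, periodontitis 1 had the highest ratio and the groups overlapped. Between the epithelial chains, the ratio of Lamb3 to Lama3 was 1.64 to 2.67 in controls and 1.72, 1.38 and 1.96 in periodontitis. The ratio of Itgb4 to Itga6 was 1.03 to 1.20 in controls and 0.798, 1.07 and 0.992 in periodontitis. In neither of these pairs did the groups separate. The ratio of Nid1 to Lamc1 was 1.11, 1.04 and 1.03 in controls and 0.914, 0.885 and 0.705 in periodontitis, all of them below the controls. It is given here as 1 of 12 ratios and was singled out after its values were seen, so no test was made.

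**Figure D4:**
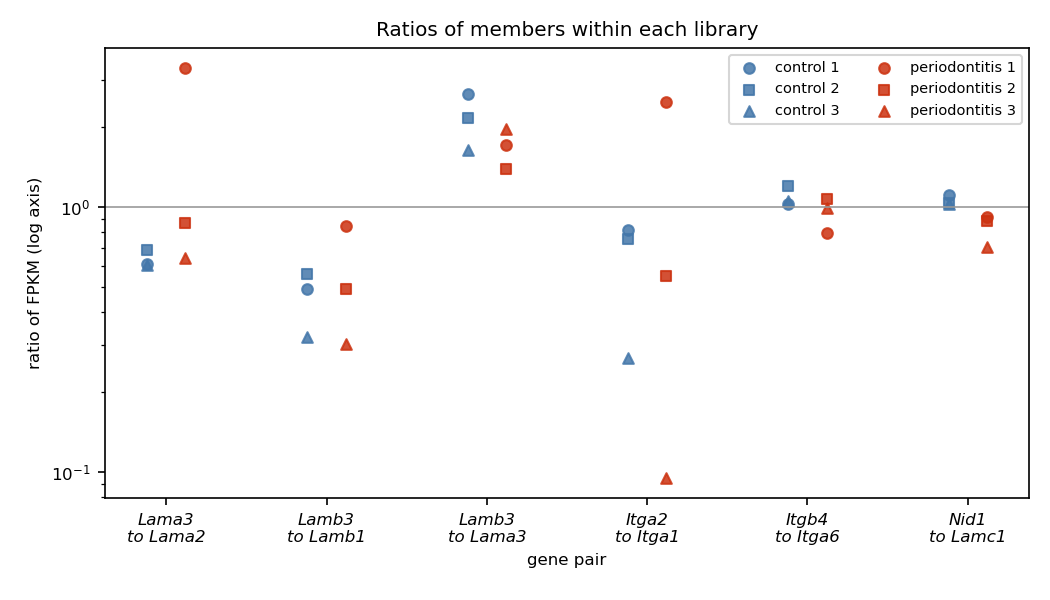
Ratios of FPKM of 6 gene pairs within each library, on a log axis, with controls in blue and periodontitis in red. Periodontitis 1 lies highest for Lama3 to Lama2, Lamb3 to Lamb1 and Itga2 to Itga1, while the ratios of Lamb3 to Lama3 and Itgb4 to Itga6 lie between 0.798 and 2.67 in all 6 libraries.

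Other genes of the same structures were taken from lists chosen by function. In none of these lists did a gene pass the limma adjusted p of 0.05. Of 8 tested collagen genes of the basement membrane zone, 7 had a lower mean, against 57.4% of all genes. The list median log2 fold change was -0.29, against -0.03 over all genes. The chains of type IV collagen Col4a1 and Col4a2 had 9.95 and 4.73 FPKM in periodontitis 1 and 49.8 and 30.1 FPKM in periodontitis 3, so that the periodontitis libraries lay on both sides of the controls (26.8 to 37.7 and 14.2 to 20.9 FPKM). Col7a1, the collagen of the fibrils that anchor the basement membrane to the tissue below, had 8.93, 9.10 and 10.4 FPKM in controls and 10.6, 12.8 and 11.6 FPKM in periodontitis. All its periodontitis libraries lay above all controls, with a log2 fold change of 0.27 ± 0.16 (SE, limma unadjusted p = 0.133). Col15a1, Col4a5 and Col4a4 had -0.68, -0.29 and -0.28.

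Of 12 tested genes of other basement membrane components, 10 had a lower mean, against 57.4% of all genes (median -0.24, against -0.03). Sparc, a collagen-binding matrix protein, had 272, 315 and 298 FPKM in controls and 136, 195 and 232 FPKM in periodontitis, without overlap, and Fbln1, fibulin 1, likewise had 30.7 to 38.9 FPKM in controls and 6.29, 29.7 and 20.2 FPKM in periodontitis. Pxdn, the peroxidase that crosslinks type IV collagen, had a log2 fold change of -0.45, and Egflam, which binds dystroglycan, had -0.26. All 10 tested receptors of laminin other than integrins and proteins bound to them had a lower mean, against 57.4% of all genes (median -0.33). They include the muscle sarcoglycans Sgcb (-0.72), Sgca (-0.82) and Sgcd (-0.50), of which Sgca had groups without overlap. Lower values without overlap were found in 3.59% of all genes.

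All 5 tested hemidesmosome partners and basal keratins (Col17a1, Krt14, Krt15, Cd151 and Krt5) were lowest in periodontitis 3, against 39.4% of all genes. All of them but Col17a1 were highest in periodontitis 1, against 27.8% of all genes. Col17a1, the collagen that crosses the membrane at the hemidesmosome, had 93.1, 86.9 and 81.4 FPKM in controls and 73.8, 113 and 61.6 FPKM in periodontitis, so that periodontitis 1 and 3 lay below all controls and periodontitis 2 above them. Krt14, the keratin of basal cells, had 471 to 694 FPKM in controls and 1213, 585 and 440 FPKM in periodontitis. Itgb4 and Itga6 did not follow Krt14, since periodontitis 1 was the lowest library for Itgb4 and lay within the control range for Itga6.

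Among the cytoplasmic adaptors of integrins, 19 of 24 tested had a lower mean, against 57.4% of all genes (median -0.14). Parvb, parvin beta, had 4.76 to 7.20 FPKM in controls and 1.11, 4.50 and 3.48 FPKM in periodontitis, and Rsu1, which binds the complex of integrin-linked kinase, had 10.3 to 14.8 FPKM in controls and 8.04, 9.80 and 9.18 FPKM in periodontitis. Both had groups without overlap (lower in 3.59% of all genes), with log2 fold changes of -0.89 and -0.34. Tns4, tensin 4, named after its values were seen, had groups without overlap in the other direction (higher in 1.97% of all genes). It had 10.3 to 11.0 FPKM in controls and 11.2, 11.7 and 11.2 FPKM in periodontitis. Lims2 and Tns2 had -0.31 and -0.34. Periodontitis 1 was the lowest library for 17 of the 24 adaptors, against 34.7% of all genes. Of the other integrin genes, which the naming rule left out, 5 were tested and 3 had a lower mean. Itgav, the alpha subunit of most RGD receptors, had 9.01, 9.08 and 9.17 FPKM in controls and 8.23, 12.2 and 7.51 FPKM in periodontitis, and Itgal, Itgae, Itgax and Itgbl1 had log2 fold changes of -0.27, -0.09, 0.06 and -0.35.

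**Figure D5:**
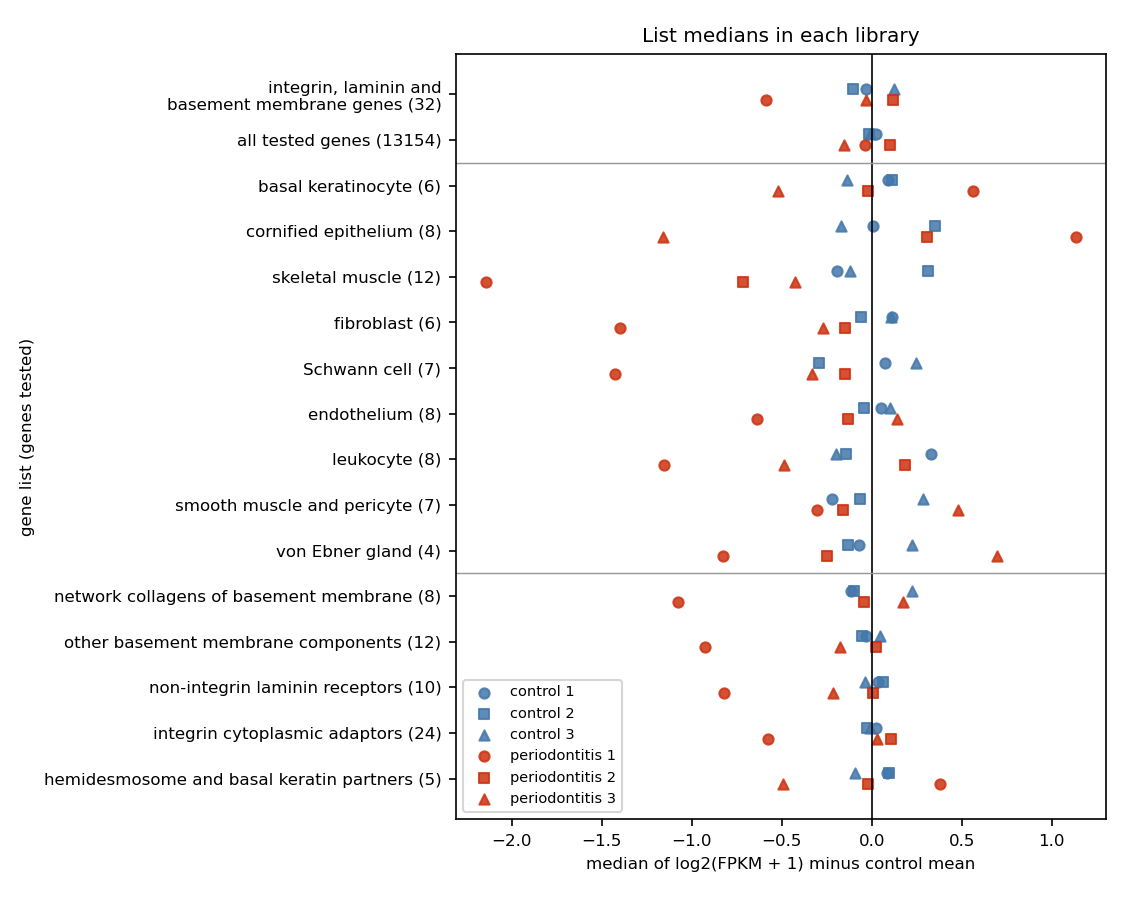
Median over each list's tested genes of log2(FPKM + 1) minus the control mean, 1 point per library, with the number of tested genes in brackets. Periodontitis 1 lies lowest for the integrin, laminin and basement membrane genes (-0.59), for skeletal muscle (-2.15) and for fibroblast markers (-1.40), and highest for basal keratinocyte (0.56) and cornified epithelium markers (1.14).

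The libraries in which members were low are set beside the other cell type markers here. Fibroblast markers had median deviations of -1.40, -0.15 and -0.27 in periodontitis 1 to 3, Schwann cell markers -1.43, -0.15 and -0.33, and endothelial markers -0.64, -0.13 and 0.14. Control medians of these 3 lists lay between -0.29 and 0.25. Summed fibroblast markers were 1131 to 1237 FPKM in controls and 473 to 1094 FPKM in periodontitis. By list medians, periodontitis 1 was the lowest library for the matrix-producing and muscle cell markers, and it was the lowest for most laminin, nidogen and integrin genes. It was the highest for the keratinocyte marker medians and for Lamb3, Itga2 and Itgb6. Other epithelial members went the other way, since it was the lowest for Itgb4, Itga3 and Dst. The keratinocyte marker Col17a1 also lay below all controls in periodontitis 1. Von Ebner gland markers (4 genes of the salivary glands that open at the papilla) were also lowest in periodontitis 1, with median deviations of -0.83, -0.25 and 0.70 in periodontitis 1 to 3. They made up 24.5% to 29.4% of the FPKM sum in controls and 15.2%, 23.5% and 40.6% in periodontitis, and this sum is part of the scale of every member. Smooth muscle markers had median deviations of -0.30, -0.16 and 0.48. Red blood cell markers went the other way. All 3 tested entries (Hba-a2, Hbb and a further Hba-a2) were higher in every periodontitis library than in any control (1.97% of all genes). They summed to 131 to 174 FPKM in controls and 276, 234 and 602 FPKM in periodontitis. The part of tissue composition in the members' values was not tested.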

How the data were processed

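The deposited values are FPKM per gene, made by the authors and named so in the file headers, 1 table per library, of 14405 protein-coding genes. FastQC, cutadapt, HISAT2 and StringTie are named without versions in the submitters' processing notes. Those notes name the mouse build mm10, while identifiers in the tables are those of rat. The sources used here give no read counts, strand or depth, so no counting interval was computed. Library sums were 611713 to 660619 FPKM. The 13154 genes that reached 1 FPKM in 3 or more libraries were tested on log2(FPKM + 1) with limma 3.58.1 in R 4.3.3, with a mean-variance trend and group as the only term, two-sided, adjusted by Benjamini-Hochberg over all tested genes with a threshold of 0.05. The fit was tested on simulated data. Groups came from the disease labels. The members are named, except 1 that is counted but not reported here, with every library's value for those with groups without overlap, those with the smallest p and those of the hemidesmosome, and in each partner list up to 4 genes with the smallest p, while marker lists are given by their sums and medians. A few further genes of these lists were named after their values were seen. The members and lists were chosen with earlier results of these data known. Alternatives were a replicate block, each library left out, other filters, quantile normalization, no trend, another pseudocount and other thresholds. A rescaling without 4 gland genes (Lipf, Lcn1, Vegp2 and Bpifb1) and a fit without periodontitis 1 and 3 were added after seeing the data.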

Additional observations from a re-analysis of the deposited data

How the results depend on the processing

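No setting gave a member past a limma adjusted p of 0.05. The lowest adjusted p of a member in any setting was 0.591, without periodontitis 3, a value shared by several members, Itgb1bp2, Itga2 and Lama3 among them. The count of all genes past the threshold (0) was 3 with the replicate number as a block, 0 to 1 with each library left out, 1 at an adjusted p under 0.1, 278 at an unadjusted p under 0.05 and 1 without periodontitis 1 and 3. At an unadjusted p under 0.05 there were 3 members (278 of all genes), 2 with the replicate block (468) and 0 after rescaling without gland genes (182). Same-numbered libraries deviated together with correlations of 0.09, 0.03 and 0.46. Control 3 correlated best with periodontitis 3, while controls 1 and 2 correlated best with a periodontitis library of another number. The main fit did not pair the libraries. The members' median log2 fold change (-0.13) was -0.24 to 0.04 with each library left out, highest without periodontitis 1 and lowest without periodontitis 2, and 0.12 without periodontitis 1 and 3, where 1 library stands for the group. It was -0.06 with quantile normalization, -0.09 without gland genes and -0.13 with no filter. Signs of uncalled members changed for 15 of 32 without periodontitis 1, 2 with quantile normalization (Itga9 and Lamc3) and 1 after the gland rescaling (Lamb2). With 1 library left out, the log2 fold changes were -0.85 to -0.51 for Itgb1bp2, -1.04 to -0.43 for Itgb7 and -0.65 to -0.37 for Itga5, whose sign could not turn because their groups do not overlap. How far depth limits low members such as Lamc3 could not be computed.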
